A study of Mus musculus with 4 samples.

Results

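The liver's mitochondrial chaperones and proteases were followed over 4 microarrays through 10 genes: Hspd1, Hspe1, Hspa9, Lonp1, Clpp, Clpx, Htra2, Yme1l1, Afg3l2 and Trap1. They were taken by name. A probe belonged to the set if it was a gene probe and its gene name in the scanner files was 1 of these symbols, and no measured value entered the choice. The rule found 13 of 39429 probes, for 10 of the 30439 genes or transcripts on the array. Hspe1 had 3 probes, Htra2 had 2, and the other 8 genes had 1 each. All 13 probes were well above background on all 4 arrays by the scanner's own test, so no gene of the set was lost to a filter on dim signals.

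Most mitochondrial proteins are made in the cytosol, threaded through the import channels as unfolded chains, and folded inside. Hspa9 (mortalin) pulls the chains into the matrix, Hspd1 (HSP60) folds them in a barrel-shaped cage closed by the Hspe1 (HSP10) lid, and Trap1 is the mitochondrial member of the HSP90 family. Lonp1 and the ClpXP complex, in which Clpx unfolds and Clpp cuts, degrade damaged matrix proteins. Yme1l1 and Afg3l2 are ATP-driven proteases of the inner membrane, and Htra2 is a serine protease of the intermembrane space. These genes are commonly read as targets of the mitochondrial unfolded protein response, in which cells that sense misfolded mitochondrial proteins raise the transcription of chaperones and proteases. In mammals Atf4, Atf5 and Ddit3 (CHOP) have been named as its transcription factors.

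RNA came from livers of male C57BL/6J mice after 24 weeks of a high-fat diet that the methods start at 4 weeks of age, and each of the 4 groups was a single array. Cont mice, called wild type in the labels, carried both floxed Drp1 alleles (flox/flox) per the study's methods, and Drp1LiKO mice (Alb-Cre Tg/+, flox/flox) were littermates meant to lose Drp1 (Dnm1l), the GTPase that divides mitochondria, through Cre driven by the albumin promoter. That promoter acts in hepatocytes, and which other cells of the liver kept the gene was not measured. The Cont_refed and Drp1LiKO_refed mice were fasted for 17 h and refed for 4 h. The labels of the other 2 arrays name no feeding state. They were read as fasted from the study's methods, although the series description names no fasted group and the labels state that these 2 arrays reuse raw data submitted before, and every value called fasted rests on that reading. Nothing in the labels gives the number of mice behind an array, and no group had a second one.

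The 4 arrays lay on 1 slide and were read in 1 scan. Between 48.7% and 58.2% of their gene spots were well above background, none was saturated, and the array's 75th percentile signal ranged from 357 to 722. Levels are given as log2 of the processed signal relative to that percentile, so a level of 0 is the 75th percentile of the array. Each difference has an SE built from the error estimates that the scanner software gives per spot, which leave out the spread between mice. Dnm1l itself had levels of 1.02, 0.81, 0.66 and 0.54 in Cont fasted, Drp1LiKO fasted, Cont refed and Drp1LiKO refed liver, so that Drp1LiKO minus Cont was -0.21 after fasting and -0.12 after refeeding, each with an SE of 0.20. Whether its probe lies in the deleted part of the gene was not known here, and these small differences do not check the genotype labels.

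**Figure D1:**
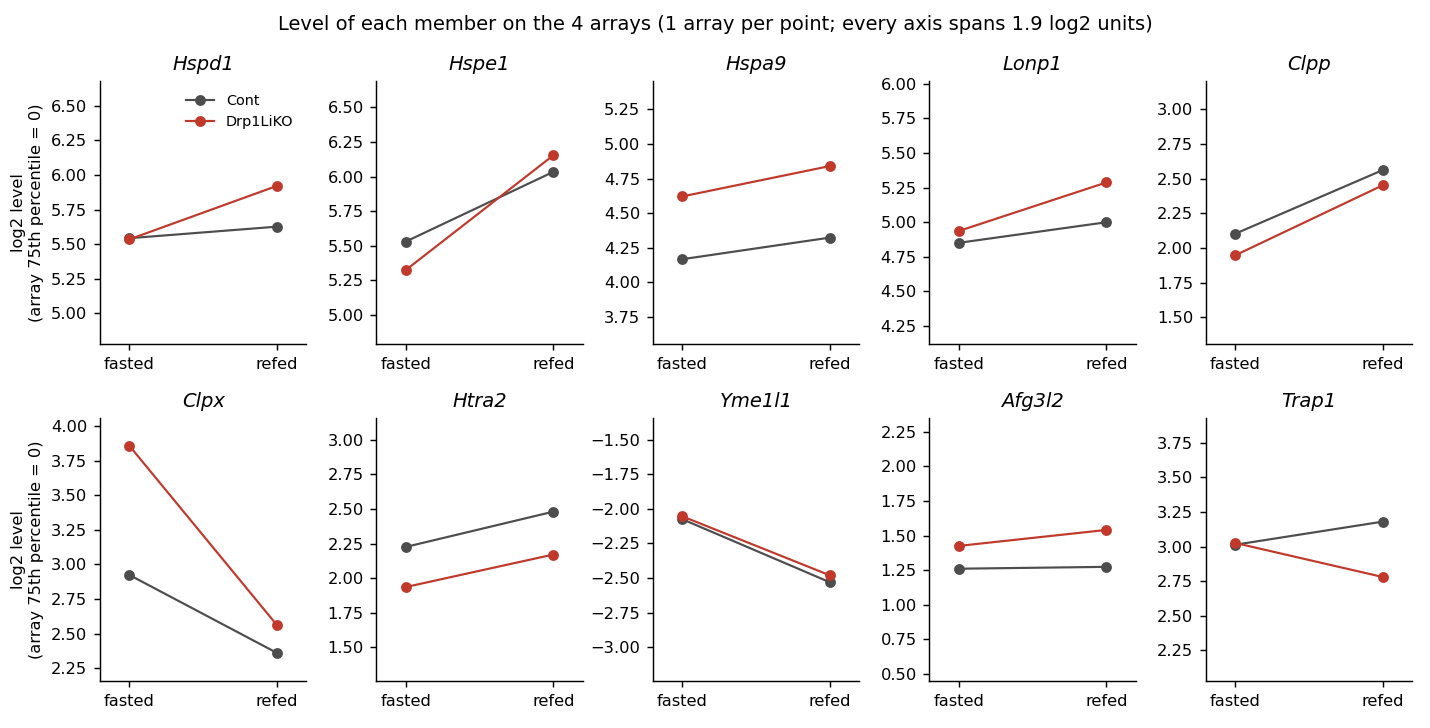
Level of each of the 10 genes (log2 signal, array 75th percentile = 0) in fasted and refed liver, with Cont in grey and Drp1LiKO in red and 1 array per point. Every vertical axis spans the same distance, so the slopes can be compared between panels but the heights cannot. Clpx has the widest range, 1.496 on the log2 scale, and Afg3l2 the narrowest, 0.28.

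After fasting, Clpx was higher by 0.93 (SE 0.20, 1.91-fold) and Hspa9 by 0.45 (SE 0.20, 1.37-fold), and the other 8 genes lay between -0.29 and 0.16. After refeeding Hspa9 was again higher, by 0.52 (SE 0.20, 1.43-fold), while Clpx was higher by only 0.20 (SE 0.20). No gene of the set was 2-fold higher or lower in Drp1LiKO liver in either feeding state. In fasted liver 8.06% of all genes well above background reached 2-fold in the higher and 5.19% in the lower direction, and in refed liver 8.05% and 6.33% did, so even 1 such gene among 10 would have been close to the background. At 1.5-fold the only gene of the set was Clpx, higher in fasted Drp1LiKO liver, beside 14.4% of all genes higher and 14% lower in fasted and 14.8% and 15.7% in refed liver.

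The median difference between the genotypes over the 10 genes was 0.02 after fasting and 0.16 after refeeding, beside -0.08 and -0.04 over all genes. After fasting, 6 of the 10 were higher and 4 lower in Drp1LiKO liver, against 43.7% and 56.3% of all genes, and after refeeding 7 were higher and 3 lower, against 46.1% and 53.9%. The fasted split was 4 higher and 6 lower with median scaling and 8 higher and 2 lower with quantile normalization, and the refed split was 7 and 3 in all 5 alternatives for scaling and probes. A difference above 2 measurement SEs in the higher direction was found for 2 genes after fasting (12.7% of all genes) and for 1 after refeeding (13.5%). None was lower by that margin, which 20.9% and 21.5% of all genes were. Over the feeding states, 5 genes were higher in both (Hspa9, Lonp1, Clpx, Yme1l1 and Afg3l2), 2 were lower in both (Clpp and Htra2) and 3 had opposite signs (Hspd1, Hspe1 and Trap1), where 31% of all genes were higher in both, 43.3% lower in both and 25.7% opposite. These signs hold for the scaling and the probes used: Htra2 was higher after fasting on its second probe, and the fasted difference of Yme1l1 and the refed difference of Clpp each changed sign in at least 1 alternative, to as far as -0.14 and 0.0073. With 1 array per group, none of these counts has a replicate behind it.

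**Figure D2:**
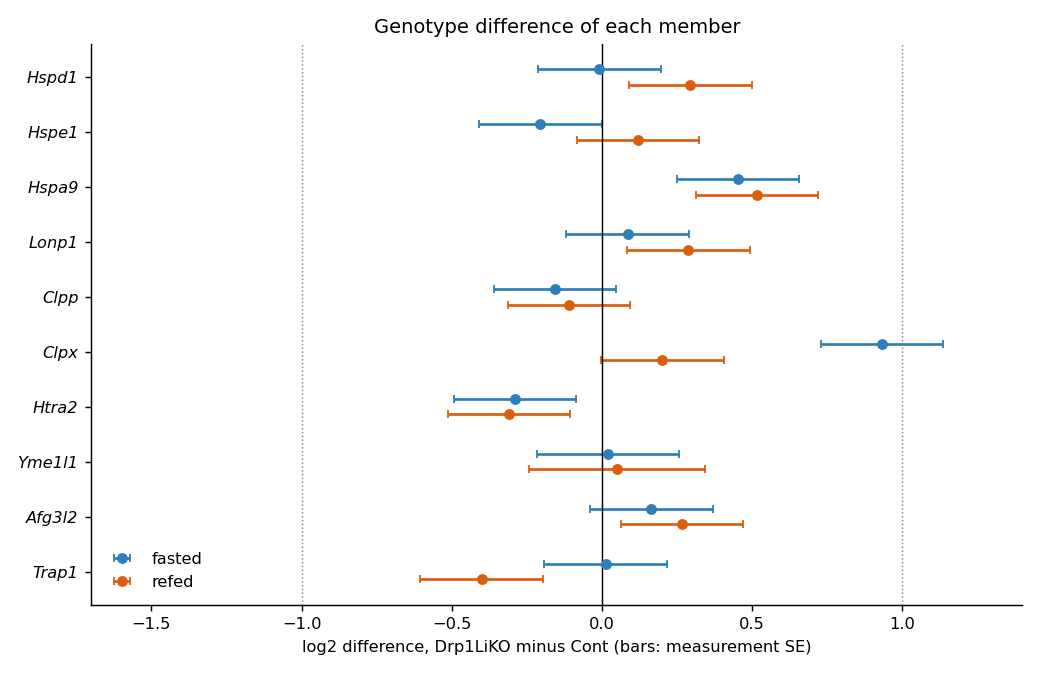
Log2 difference Drp1LiKO minus Cont of each gene in fasted (blue) and refed (orange) liver, with 1 measurement SE as the bar and dotted lines at 2-fold. Clpx after fasting (0.93) and Hspa9 in both states (0.45 and 0.52) lie more than 2 SEs from 0, and no gene reaches 2-fold.

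Refeeding differences ran from -1.30 to 0.83 over the set, and genotype differences from -0.40 to 0.93. Clpx was lower after refeeding, by 0.56 in Cont (SE 0.20) and by 1.30 in Drp1LiKO liver (SE 0.20, 2.45-fold), whereas Hspe1 was higher by 0.50 and 0.83 and Clpp by 0.46 and 0.51. Clpx in Drp1LiKO liver was the only one of the 10 genes to differ 2-fold between feeding states, in a comparison where 7.15% of all genes reached 2-fold in the lower and 5.61% in the higher direction. In Cont liver none of the 10 did, beside 5.83% of all genes lower and 4.47% higher. At 1.5-fold the set held Clpx (lower, as 14.9% of all genes were) and Hspe1 (higher, as 17.5% were) in Drp1LiKO liver and no gene in Cont liver, where 11.7% of all genes were lower and 10% higher by that margin. Beyond 2 SEs, 2 of the 10 were higher and 1 lower in each genotype, beside 16.8% and 11.9% of all genes in Cont and 24.1% and 16.3% in Drp1LiKO liver. In Cont liver 8 of the 10 were higher by any amount and 2 lower (58.6% and 41.4% of all genes), and in Drp1LiKO liver 7 and 3 (55.3% and 44.7%). With quantile normalization and with the authors' values, 4 were higher and 6 lower in each genotype. Higher after refeeding in both genotypes were 7 of the 10 (45.8% of all genes), and lower in both were Clpx and Yme1l1 (29.9%). Only Trap1 had opposite signs, as did 24.3% of all genes. The refeeding differences use the same 4 arrays as the genotype differences and are not independent of them.

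**Figure D3:**
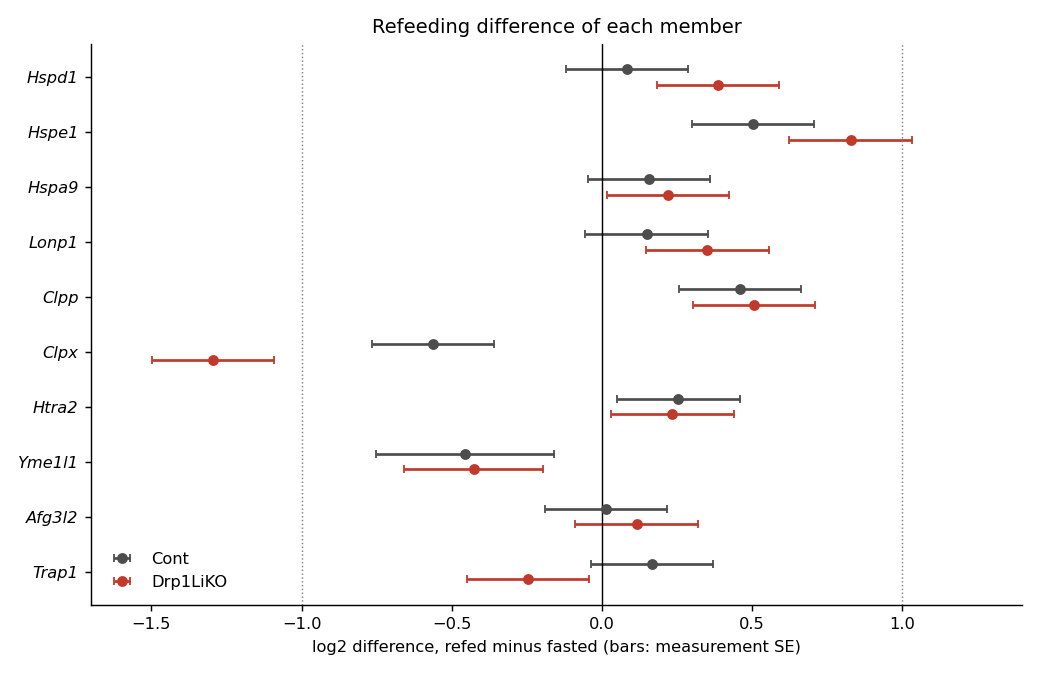
Log2 difference refed minus fasted of each gene in Cont (grey) and Drp1LiKO liver (red), with 1 measurement SE as the bar and dotted lines at 2-fold. Hspe1 and Clpp lie to the right of 0 and Clpx to the left by more than 2 SEs in both genotypes with the 75th percentile scaling (for Hspe1 and Clpp not with quantile normalization), and Clpx in Drp1LiKO liver (-1.30) is the only point past 2-fold.

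Among the folding chaperones, Hspd1 and Hspe1 form 1 machine and their genes lie head to head on chromosome 1. In the RefSeq start sites of GRCm38.p6, Hspe1 began at 55088148 on the plus strand and an Hspd1 start, on the minus strand, was at 55087932. The bases between these starts are shown because they lie upstream of Hspe1 and of this Hspd1 start. The only match to the heat shock element core GAANNTTC is in capitals.

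Hspd1 to Hspe1, chr1:55087933-55088147, plus strand: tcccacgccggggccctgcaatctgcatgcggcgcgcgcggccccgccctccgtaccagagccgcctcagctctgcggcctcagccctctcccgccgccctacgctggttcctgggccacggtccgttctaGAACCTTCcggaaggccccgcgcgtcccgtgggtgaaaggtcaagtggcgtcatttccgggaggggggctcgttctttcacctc

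The capitals stood at 55088064 to 55088071, 84 bases before the Hspe1 start and 139 bases before the Hspd1 start at 55087932. A second RefSeq start of Hspd1 lies at 55088243, beyond the start of Hspe1 and nearer to it. For that start the printed bases lie downstream.

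Hspe1 levels were 5.53 in Cont fasted, 5.33 in Drp1LiKO fasted, 6.03 in Cont refed and 6.15 in Drp1LiKO refed liver, so both refed arrays lay above both fasted ones. Hspd1 levels were 5.54, 5.53, 5.63 and 5.92 in the same order. Here Drp1LiKO refed liver stood above the other 3 arrays, which lay close together. The refeeding difference of Hspd1 was 0.08 in Cont and 0.39 in Drp1LiKO (SE 0.20 each), that is, less than that of Hspe1 by 0.42 and by 0.44 (SE 0.29 each). Both gaps were within 2 SEs. In the comparison of genotypes, Hspd1 and Hspe1 were at -0.01 and -0.21 after fasting and at 0.29 and 0.12 after refeeding, none beyond 2 SEs.

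The 3 Hspe1 probes gave the same picture. The probe used and 1 other lay at the far end of the transcript and shared a run of 45 bases, so they are not separate measurements. The third shared no more than 5 bases in a row with either and its 60 bases covered 327 bases of the genome (mm9, chr1:55147620-55147946), so it crosses at least 1 intron. It is printed because it is the independent reading of this gene.

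Hspe1 probe across an intron: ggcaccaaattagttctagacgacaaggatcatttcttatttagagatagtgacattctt

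On this probe Hspe1 was higher after refeeding by 0.57 in Cont and by 0.9997 in Drp1LiKO liver, beside 0.50 and 0.83 on the probe used, and lower in fasted Drp1LiKO liver by 0.21, as on the other 2.

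Hspa9, the matrix HSP70 that works as the import motor, had levels of 4.17 in Cont fasted, 4.62 in Drp1LiKO fasted, 4.32 in Cont refed and 4.84 in Drp1LiKO refed liver. Both Drp1LiKO arrays lay above both Cont arrays. It was the only gene of the set whose genotype difference exceeded 2 SEs in both feeding states, and refeeding added only 0.16 in Cont and 0.22 in Drp1LiKO liver (SE 0.20 each).

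Trap1, the mitochondrial HSP90, had levels of 3.01 in Cont fasted, 3.03 in Drp1LiKO fasted, 3.18 in Cont refed and 2.78 in Drp1LiKO refed liver. The 2 fasted arrays lay between the refed ones. Drp1LiKO minus Cont was 0.01 after fasting and -0.40 after refeeding (SE 0.20 each), and the change between the states, -0.41 (SE 0.29), was within 2 SEs. Its probe read 60 bases spread over 804 bases of the genome (mm9, chr16:4044692-4045495, minus strand) and so also crosses at least 1 intron.

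Trap1 probe: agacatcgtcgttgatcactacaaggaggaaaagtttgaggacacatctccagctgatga

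Set against Hspa9 on the same array, which removes any scaling of the array, Trap1 was lower in Drp1LiKO than in Cont liver by 0.44 after fasting (SE 0.29) and by 0.92 after refeeding (SE 0.29). The 2 chaperones therefore differed in their response to genotype by more than 2 SEs after refeeding and by less after fasting.

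Among the matrix proteases, Clpx and its partner Clpp had opposite signs with refeeding. Clpx, the unfoldase of ClpXP, had levels of 2.92 in Cont fasted, 3.86 in Drp1LiKO fasted, 2.36 in Cont refed and 2.56 in Drp1LiKO refed liver. In processed signal these were 3496, 10457, 1833 and 3104 before scaling. Fasted Drp1LiKO liver held the highest level by far and both refed arrays were below both fasted ones. Clpp, the peptidase, had levels of 2.10, 1.95, 2.56 and 2.45 in the same order, with both refed arrays above both fasted ones.

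Relative to Clpp, Clpx was higher in Drp1LiKO liver by 1.09 after fasting (SE 0.29) and by 0.31 after refeeding (SE 0.29). After refeeding it was lower relative to Clpp by 1.02 in Cont and by 1.80 in Drp1LiKO liver (SE 0.29 each). The refeeding difference of Clpx itself was more negative in Drp1LiKO than in Cont liver by 0.73 (SE 0.29), the only such difference between genotypes in the set beyond 2 SEs. It could not be tested, because the 4 arrays leave no replicate for it.

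The Clpp probe is printed as the partner reading, since it lies in 1 block of 60 bases (mm9, chr17:57132879-57132938, plus strand).

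Clpp probe: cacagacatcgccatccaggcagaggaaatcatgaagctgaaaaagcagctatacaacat

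The stretch upstream of Clpx is shown because Clpx was the gene of the set that varied most. Its capitals mark the CCAAT box, here on the minus strand and so printed as ATTGG.

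Clpx, chr9:65294010-65294259, plus strand, ending at the base before the start site at 65294260: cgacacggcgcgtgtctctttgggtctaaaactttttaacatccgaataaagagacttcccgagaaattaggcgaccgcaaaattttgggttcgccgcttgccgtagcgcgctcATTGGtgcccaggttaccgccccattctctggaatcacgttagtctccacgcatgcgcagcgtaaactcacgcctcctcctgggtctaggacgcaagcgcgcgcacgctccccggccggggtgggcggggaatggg

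The genes with the pattern most like that of Clpx were found by the distance between levels over the 4 arrays, each gene centred on its own mean, among 14446 other genes well above background on all 4. They were Cebpd (distance 0.080), Nbr1 (0.10), Mpzl1 (0.12), Itga8 (0.12) and Slc25a22 (0.15). Cebpd encodes a C/EBP transcription factor, Nbr1 an autophagy receptor and Slc25a22 a mitochondrial glutamate carrier. With 4 points this likeness is a description, and their genotype difference after fasting ran from 0.81 to 0.93.

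Lonp1, the ATP-driven LON protease of the matrix, had levels of 4.85 in Cont fasted, 4.94 in Drp1LiKO fasted, 4.999 in Cont refed and 5.29 in Drp1LiKO refed liver. Drp1LiKO refed liver stood above the other 3 arrays. None of its 4 differences, from 0.09 to 0.35, exceeded 2 SEs with the 75th percentile scaling. The refed genotype difference did with quantile normalization and with the authors' values (0.42 each), and the refeeding difference in Drp1LiKO liver did with median scaling (0.44). Lonp1 relative to Clpp differed between the genotypes by 0.24 after fasting and 0.40 after refeeding (SE 0.29 each), within 2 SEs. Clpx relative to Clpp differed by more than 2 SEs after fasting but not after refeeding.

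The proteases of the inner membrane and the intermembrane space differed little with genotype. Yme1l1, whose catalytic side faces the intermembrane space, had levels of -2.08 in Cont fasted, -2.05 in Drp1LiKO fasted, -2.53 in Cont refed and -2.48 in Drp1LiKO refed liver. Both refed arrays were lower, by 0.46 in Cont (SE 0.30) and 0.43 in Drp1LiKO liver (SE 0.23), and the genotypes differed by 0.02 and 0.05. Its signal was only 61.8 to 174, and its SEs were the widest of the set.

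Afg3l2, a subunit of the protease that faces the matrix, had levels of 1.26 in Cont fasted, 1.43 in Drp1LiKO fasted, 1.27 in Cont refed and 1.54 in Drp1LiKO refed liver. Both Drp1LiKO arrays were above both Cont arrays, by 0.16 after fasting and 0.27 after refeeding (SE 0.20 each), and no difference exceeded 2 SEs.

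Htra2, the serine protease of the intermembrane space, had levels of 2.23 in Cont fasted, 1.94 in Drp1LiKO fasted, 2.48 in Cont refed and 2.17 in Drp1LiKO refed liver on the probe used. Drp1LiKO liver was lower by 0.29 after fasting and by 0.31 after refeeding (SE 0.20 each). The second probe, 459 bases away at chr6:83001737-83001796 (mm9, minus strand), did not follow it, and it is printed because the call for this gene depends on which probe is read.

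Htra2 second probe: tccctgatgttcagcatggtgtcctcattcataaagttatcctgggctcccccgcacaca

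On this probe the levels were 0.62, 0.99, 0.77 and 0.39, so Drp1LiKO liver was higher by 0.37 after fasting and lower by 0.38 after refeeding. Refeeding then went with a value lower by 0.60 in Drp1LiKO liver, where the probe used was higher by 0.23. No direction for Htra2 after fasting, or with refeeding in Drp1LiKO liver, can be given from these 2 probes.

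The test used was an additive model of genotype and feeding state in limma, in which each effect was averaged over the other factor and 1 residual degree of freedom was left. Among 16744 genes it called 0 for genotype and 0 for feeding state at a Benjamini-Hochberg adjusted p of 0.05, with smallest adjusted p-values of 0.0614 and 0.169. At an unadjusted p below 0.05, 4746 genes (28.3%) passed for genotype and 4414 (26.4%) for feeding state. Of the 10 genes, Hspa9 passed that looser level for genotype (effect 0.48, SE 0.14, limma adjusted p = 0.144). For feeding state Hspe1 (0.67, SE 0.16), Clpx (-0.93, SE 0.24), Clpp (0.48, SE 0.14) and Yme1l1 (-0.44, SE 0.14) passed it, with limma adjusted p-values from 0.169 to 0.181. That is 1 of 10 and 4 of 10 genes beside the shares above, and no gene of the set was called in any variant of the model.

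The scaling of the arrays moved Hspd1, Hspe1, Hspa9 and Lonp1 most. In place of the 75th percentile, signals were scaled to the median, normalized by quantiles, background-corrected by normexp, or taken as the authors' own normalized values, and the probes of a gene were averaged by their median. Of the 40 differences (10 genes in 4 comparisons), 25 kept their sign in all 5 alternatives and 15 changed it. All 9 differences beyond 2 SEs kept their sign. Under quantile normalization the fasted genotype difference was 0.32 for Hspd1, 0.10 for Hspe1, 0.38 for Lonp1 and 1.17 for Clpx, and the refeeding difference of Hspe1 was 0.26 in Cont and 0.39 in Drp1LiKO liver, within 2 SEs. The refeeding difference of Clpp was beyond 2 SEs in only 2 of the 5 alternatives in Cont liver (lowest 0.36) and in 3 in Drp1LiKO liver (lowest 0.37). Clpx stayed beyond 2 SEs in all 5 alternatives for the fasted genotype difference (0.88 to 1.17) and for both refeeding differences (-0.65 to -0.56 in Cont and -1.55 to -1.20 in Drp1LiKO). Hspa9 was between 0.40 and 0.72 after fasting, where it was within 2 SEs in 1 alternative, and between 0.52 and 0.65 after refeeding.

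**Figure D4:**
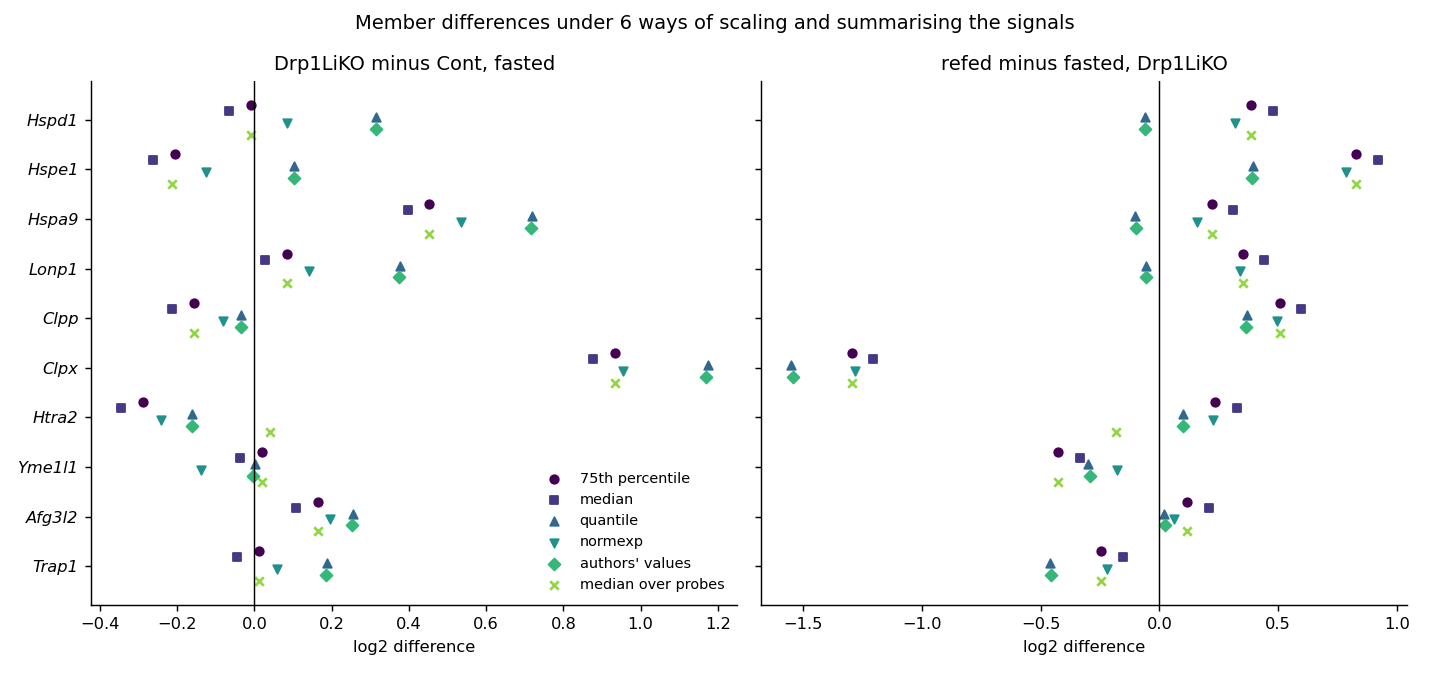
Log2 difference of each gene under 6 ways of scaling or summarising the same arrays, for Drp1LiKO minus Cont after fasting (left) and refed minus fasted in Drp1LiKO liver (right). Quantile normalization and the authors' values coincide and move Hspd1, Hspe1, Hspa9 and Lonp1 most, whereas Clpx stays at 0.88 or above on the left and at -1.20 or below on the right.

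The 8 factors listed for the mitochondrial and integrated stress responses had a median genotype difference of 0.70 after fasting and 0.50 after refeeding, beside 0.02 and 0.16 for the 10 chaperones and proteases. Drp1LiKO minus Cont was 0.61 and 0.51 for Atf4 (fasted, refed), 0.79 and 0.49 for Atf5, and 2.09 and 3.60 for Ddit3. Atf3 and Trib3, which the integrated stress response induces, differed by 5.58 and 4.42 and by 4.02 and 3.43. Cebpb, at -0.05 and -0.39, Hsf1, the heat shock factor, at -0.11 and -0.10, and Nfe2l2 (NRF2), at 0.19 and 0.28, were nearer to 0. In each feeding state 3 of these 8 genes (Ddit3, Atf3 and Trib3) were at least 2-fold higher in Drp1LiKO liver. Of all genes 8.06% were after fasting and 8.05% after refeeding. Of the 10 chaperones and proteases 0 were, which is close to those shares. The list was chosen with earlier results of these arrays known, and limma called none of its genes.

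Of 9 co-chaperones, the helpers of the chaperones, 4 were higher and 5 lower in Drp1LiKO liver after fasting, and 2 were higher and 7 lower after refeeding, or 5 and 4 with quantile normalization. On the probes used none differed 2-fold in any comparison, and with the median over probes 1 was at least 2-fold lower with refeeding in Drp1LiKO liver (Grpel2, -1.24). Grpel2, a nucleotide exchange factor of Hspa9, was highest in Drp1LiKO liver at 0.47 after fasting and 0.42 after refeeding, and lowest with refeeding at -0.36 in Cont and -0.42 in Drp1LiKO liver. Its second probe was also higher after fasting (0.16) and lower with refeeding (-0.91 and -2.06), but lower in refed Drp1LiKO liver (-0.99). The other exchange factor, Grpel1, has 2 probes that disagreed, at -0.32 and 0.40 after fasting and at -0.19 and 0.28 after refeeding. Dnlz, which helps keep Hspa9 soluble, was lowest after fasting at -0.49 (-0.08 on its second probe) and after refeeding at -0.29, and Dnajc19 was highest with refeeding at 0.92 in Cont and 0.71 in Drp1LiKO liver (0.18 and 0.62 on its second probe).

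Among 13 other mitochondrial proteases none differed 2-fold either. Oma1, which cleaves Opa1 under stress, was highest in Drp1LiKO liver at 0.48 after fasting and 0.35 after refeeding. Lactb was lowest after fasting at -0.43, and Atp23 after refeeding at -0.59. The prohibitins Phb and Phb2 are ring-forming scaffolds of the inner membrane that bind the protease of Afg3l2. They were slightly lower in Drp1LiKO liver, Phb by 0.16 and 0.06 and Phb2 by 0.23 and 0.16. Stoml2, which is not a prohibitin but was listed with them, was lower by 0.29 and 0.12. With quantile normalization 2 of these 3 were higher after fasting and all 3 after refeeding, so no direction is given for them.

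The 18 import genes and 18 reference proteins of the mitochondrion served as the yardstick for the compartment as a whole. The reference proteins had a median genotype difference of -0.20 after fasting and -0.15 after refeeding, and the import genes -0.12 and -0.02. With quantile normalization the fasted medians were 0.10 and 0.05 instead. Among the reference proteins Cox4i1 was lowest at -0.59 and -0.51, and the highest were Cs after fasting at 0.34 and Cycs after refeeding at 0.47. With refeeding 17 of 18 import genes were higher in Cont and 16 in Drp1LiKO liver, beside 58.6% and 55.3% of all genes. The import medians were 0.31 and 0.52. The reference proteins had 0.28 and 0.37, and the 10 chaperones and proteases 0.15 and 0.23. With quantile normalization these medians were 0.15 and 0.21 for import, 0.03 and -0.03 for the reference proteins and -0.02 and -0.06 for the set. Tomm20, a receptor of the outer membrane, was the highest import gene in Drp1LiKO liver at 0.43 after fasting and 0.57 after refeeding, and the lowest were Timm22 after fasting (-0.61) and Tomm7 after refeeding (-0.46).

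**Figure D5:**
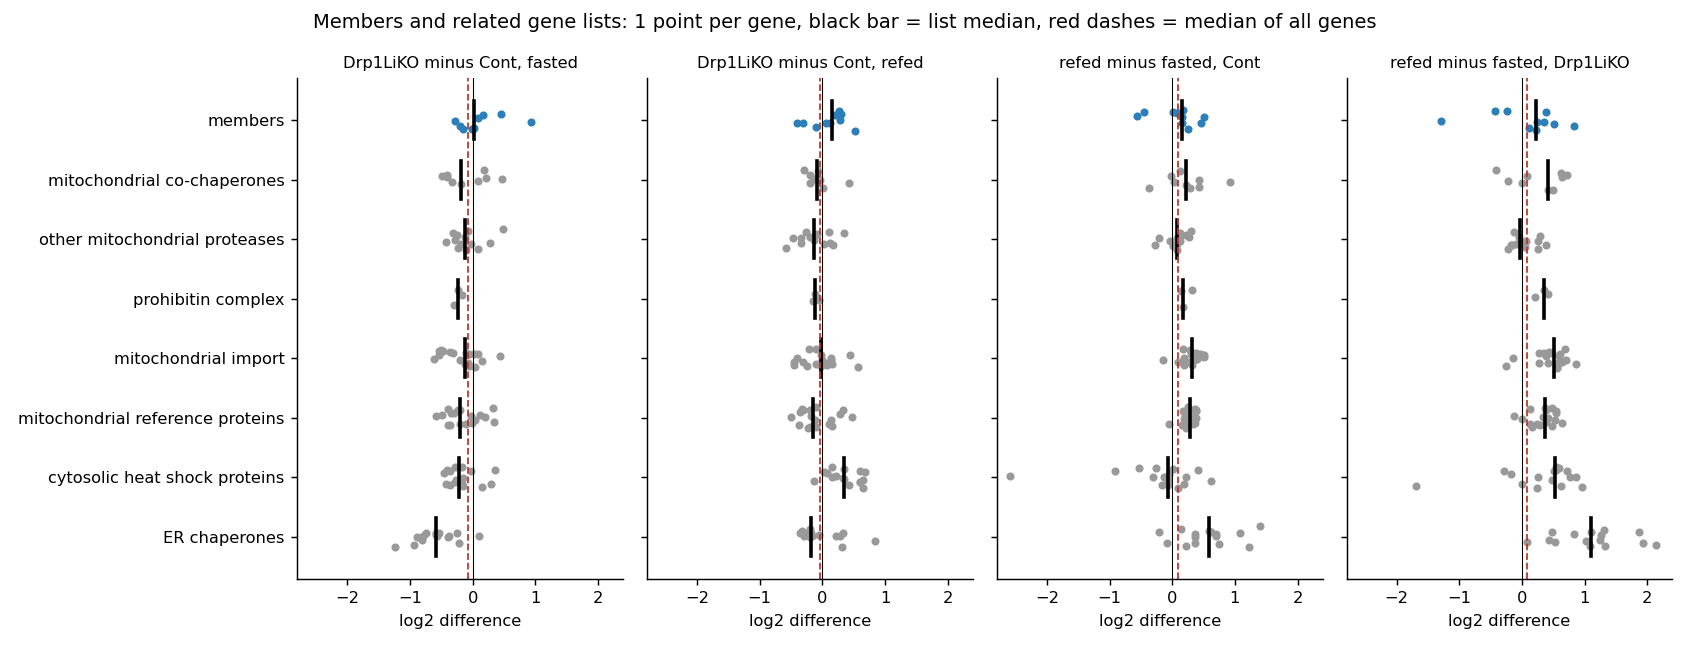
Log2 difference of single genes in the set (blue) and in 7 related gene lists (grey) for the 4 comparisons, with the list median as a black bar and the median of all genes as a red dashed line. The set's medians are 0.02, 0.16, 0.15 and 0.23 from left to right, and the ER chaperones reach 1.102 in the rightmost panel.

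Chaperones of other compartments were measured beside the set. Of 15 ER chaperones, 14 were lower in fasted Drp1LiKO liver (56.3% of all genes), with a median of -0.58. Calr was the lowest at -1.24 and Dnajb9 the highest at 0.10. After refeeding Dnajb9 was highest at 0.84 and Pdia3 lowest at -0.35. With refeeding all 15 were higher in Drp1LiKO liver (55.3% of all genes), with a median of 1.102. Of them 10 were at least 2-fold higher (5.61% of all genes), Sdf2l1 the most at 2.14. In Cont liver 3 of 15 were (4.47% of all genes), namely Sdf2l1 (1.39), Creld2 (1.22) and Manf (1.08). With quantile normalization 14 of 15 were higher with refeeding in Drp1LiKO liver and the median was 0.82. With the median over probes all 15 were lower in fasted Drp1LiKO liver (Dnajb9 at -0.17), and Dnajb11 was lowest after refeeding at -1.39. With refeeding in Drp1LiKO liver 14 of 15 were then higher, 8 of them at least 2-fold, and Dnajb11 was at -0.11. Of 16 cytosolic heat shock proteins, 13 were lower in Drp1LiKO liver after fasting (56.3% of all genes) and 15 were higher after refeeding (46.1%). Their medians were -0.22 and 0.35. With quantile normalization 10 of 16 were lower after fasting, and the median was -0.04. Ahsa1 was lowest after fasting at -0.46 and Hspb8 highest at 0.36. After refeeding, 14 to 16 of the 16 were higher in every alternative, with Hsp90aa1 highest at 0.69 and Ahsa1 (-0.14) lower. Hspa1a was not well above background in refed Cont liver, and with refeeding it was lower by at least 1.42 in Cont and by 1.70 in Drp1LiKO liver. With normexp it was at -0.68 in Drp1LiKO liver, and none of the 16 was 2-fold lower with refeeding in either genotype. The set's Hspd1 and Hspe1 had the same pair of signs as this list, at -0.01 and 0.29 and at -0.21 and 0.12, but with quantile normalization both were above 0 after fasting.

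Letters of known regulatory sites were searched for in the RefSeq promoter windows of GRCm38.p6, from 250 bases before to 50 after each start and on both strands. Windows were matched for 7 of the 10 genes: Hspd1 (2 windows), Hspe1, Lonp1, Clpp, Clpx, Yme1l1 and Trap1. The heat shock element core GAANNTTC occurred in 2 of them, Hspd1 and Hspe1, and in 7.86% of 32851 promoters. Both matches are the same 8 bases printed above. The core of the C/EBP-ATF response element, TGATGNAA, which Atf4 and Ddit3 dimers are known to bind, occurred in 0 of the 7 and in 3.97% of all promoters. CCAAT occurred in 3 (Hspd1, Clpx and Yme1l1) and in 37.4% of all. The E-box CACGTG occurred in 2 (Hspd1 and Lonp1) and in 7.15% of all, and the core of the NRF1 site in 1 (Hspd1) and in 4.6%. These are matches of letters and say nothing of binding.

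The livers also differed in their cell type markers. Of 10 hepatocyte markers, 8 were lower in Drp1LiKO liver in each feeding state (56.3% and 53.9% of all genes), with medians of -0.53 and -0.46. Tat (1.04 and 0.98) and Cps1 (0.60 and 1.24) were higher. Lowest were Serpina1a after fasting (-0.67) and Apoc3 after refeeding (-0.72). With quantile normalization those medians were -0.03 and -0.11. All 10 were well above background on all arrays, and their summed level ran from 2241 to 2709 in Drp1LiKO and from 3259 to 3959 in Cont liver, in units of the array's 75th percentile. Of 9 macrophage markers, 7 were higher after fasting and all 9 after refeeding (43.7% and 46.1% of all genes). Marco (1.65 and 1.61) and Lyz2 (1.38 and 1.53) were at least 2-fold higher, as 8.06% and 8.05% of all genes were. The summed level of these 9 was 101 and 113 in Cont against 118 and 197 in Drp1LiKO liver.

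Of all genes, 43.7% were higher in Drp1LiKO liver after fasting and 46.1% after refeeding. At least 2-fold higher were 8.06% and 8.05%. Beside these shares, 7 of 9 stellate cell and fibroblast markers were higher after fasting, with a median of 0.81. After refeeding 5 of 9 were higher, with a median of 0.02. Summed levels were 47.2 and 53.5 in Cont and 68.9 and 60.8 in Drp1LiKO. Col1a1 was highest after fasting at 1.67 and Reln lowest at -0.74, and after refeeding Lrat was highest at 0.60 and Pdgfrb lowest at -0.63. Endothelial medians were 0.30 and -0.13, with 5 and 3 of 8 higher and Kdr lowest (-0.81 and -0.93). Tek was highest after fasting (at least 1.42) and after refeeding (0.80, with no allowance for dim signals). Lyve1 stood at 0.24 after refeeding and was highest there with normexp (0.09). Summed levels were 56.5 and 59.9 in Cont and 48.5 and 40.9 in Drp1LiKO. Other leukocyte markers had 5 and 6 of 9 higher, at least 2-fold in both states for Ptprc (1.197 and at least 1.22) and Itgax (1.16 and 1.19). After fasting 2 of the 9 were at least 2-fold lower (5.19% of all genes), S100a9 the most at -1.11. Summed levels were 9.17 and 10.5 in Cont and 6.39 and 13.5 in Drp1LiKO, and Cd8a passed the background test on no array. With normexp 3 of the 9 were higher after fasting and 5 after refeeding. At least 2-fold higher were then 0 after fasting (Itgax highest at 0.62) and 1 after refeeding (S100a9, 1.06). Cholangiocyte markers had 5 of 6 higher in each state, with Sox9 at least 2-fold in both (1.24 and at least 1.67), with summed levels of 0.66 and 0.69 in Cont and 1.25 and 1.57 in Drp1LiKO, and Epcam passed it on none. The chaperones and proteases are made in all these cells, the part of the cell mix in their differences was not tested, and in whole liver RNA fewer cells of a type and less RNA per cell cannot be told apart.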

How the data were processed

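The authors deposited scanner files, and the linear intensity values used here are their processed signals (gProcessedSignal). Feature Extraction, version 10.7.1.1 per the file headers, had removed background array by array, and the submitters' processing notes give version 9.5.1.1. The 4 one-colour arrays carry 44397 spots each, 43020 of them gene spots, and an array design that differs from the one in the study's methods, as does the RNA kit in the labels. The normalized intensities the authors deposited were converted to log2 here. They were then within 0.0089 (99th percentile) of values obtained by quantile-normalizing those signals and served as an alternative.

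Outlier spots were left out, repeated spots averaged, log2 signals set relative to the array's 75th percentile, and for a gene with several probes the probe well above background on most arrays and then with the highest mean was used. Over 223 probes printed 10 times, the median SD between spots was 0.056 to 0.070. A gene counted as changed at 2-fold or more with the brighter signal well above background. Measurement SEs cover neither mice nor RNA preparation. There are no replicates, hence no p-value within a feeding state, and the number of arrays limits the precision. limma 3.58.1 (R 4.3.3) fitted genotype plus feeding state to genes that passed the background test on 2 or more arrays, adjusted over 16744 genes. The procedure was tested on simulated data. Python 3.11.15, numpy 2.4.6, pandas 2.3.3 and matplotlib 3.10.9 were used.

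Genes and probes of the set were all named. From the stress factors, the prohibitins with Stoml2, and Dnm1l all were named. From other lists these were up to 4 genes at least 2-fold in 1 direction in both states or otherwise the highest and lowest (for refeeding not all of these are given). Others were chosen after their values were seen (Grpel1 and the markers Cd8a, Epcam, S100a9, Cftr and Lyve1). The set and lists were chosen with earlier results of these data known. Probe positions are those of mm9 in the scanner files, and no genome of that build was used here, so exons and UTRs were not assigned. Start sites and promoter windows come from RefSeq (GRCm38.p6). Alternatives were other scalings, normexp (offset 50), the authors' values, the median over probes, other filters on dim probes, a 1.5-fold threshold, an intensity trend and a model without the other factor.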

Additional observations from a re-analysis of the deposited data

How the results depend on the processing

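With 1 array per group, no array could be left out. No paired analysis was possible because the 4 groups share a single replicate number. The count of genes of the set at least 2-fold different after fasting was 1 instead of 0 (Clpx) with quantile normalization, with the authors' values and at 1.5-fold, and the count with refeeding in Drp1LiKO liver was 2 instead of 1 at 1.5-fold. The set's fasted genotype median was 0.22 with quantile normalization, and its refeeding median in Drp1LiKO liver was -0.06 with quantile normalization and -0.0598 with the authors' values. The limma count for genotype was 319 with median scaling, 498 with normexp, 1214 over genes well above background on all 4 arrays, 474 with an intensity trend and 1 without feeding state, and that for feeding state was 15 over genes on all 4 arrays. None of these called genes was in the set, and the cause of the spread in counts was not tested. Yme1l1, whose signals were low, was lower with refeeding by only 0.14 in Cont and 0.18 in Drp1LiKO liver with normexp.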
